A study of Mus musculus with 28 samples.

Results

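An organoid culture of mouse liver kept in differentiation medium (DM) was compared, gene by gene, with adult liver tissue. The comparison takes 3 of the 28 arrays of the series: the single DM organoid array, whose label states that it has no biological replicate, and the 2 adult liver arrays, labelled as biological replicates. The 3 arrays were chosen by their labels alone, with no measured value. The gene lists used below were drawn up with earlier results of these data known. All 3 samples are total RNA of C57BL/6 mice, the liver samples being from wildtype animals. The organoids had been started from single cells isolated by Lgr5, a receptor for R-spondins that marks dividing progenitors in several epithelia, and the labels do not say how long they were kept in either medium, what the differentiation medium held or from which animals they came. Organoids kept in expansion medium (EM, 2 arrays) were set beside them. The EM organoids differed from the DM organoid in Y-linked transcripts too, so medium cannot be told apart from a possible difference in sex. The other arrays of the 13 groups served to estimate the spread and, for whole liver (2 arrays), pancreas (2), muscle (3) and white and brown adipose tissue (3 each), to define liver-enriched genes without using the samples compared. Each array was hybridised with cRNA of the sample in Cy3 and of one commercial mouse reference RNA (Stratagene) in Cy5.

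Hepatocytes make most of the proteins of blood plasma, convert ammonia to urea, make bile acids, store and release glucose, and oxidise drugs and hormones with cytochrome P450 enzymes before conjugating them. Bile ducts are lined by cholangiocytes, an epithelium of another type that expresses keratins 7 and 19, Epcam and Sox9. Hepatocytes and cholangiocytes both arise from a common embryonic precursor, and organoids grown from duct-like cells start from the cholangiocyte side of that split. A culture can therefore hold hepatocyte genes, duct genes and genes foreign to the liver at the same time, and an array of bulk RNA cannot tell fewer cells of a type from less RNA per cell.

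The DM array was dimmer than the tissue it was compared with: 30.8% of its probes were well above background in Cy3, against 46.8 and 60.9% on adult liver replicates 1 and 2. A gene can therefore be missed on the DM array more easily than in liver. Of the 13729 tested genes above background on both adult liver arrays, 4577 (33.3%) were not above background on the DM array, and this share is the background for every count of absent genes given here. No slide and no scan day held both the DM organoid and adult liver, so these batches cannot be told apart from the comparison. Precision is limited by the small number of arrays. The lone DM array was assumed to vary like the arrays of the other groups, which share 1 estimate of the spread in limma's model, and a p-value measures a difference against that spread.

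Values are log2 of Cy3 over Cy5, and a difference of 1 is a 2-fold change. For the brightest liver genes this ratio differed from Cy3 alone by several log2 units, and the Cy5 signal of the same reference RNA was not the same on all arrays. Albumin (Alb), the main plasma protein and the best known hepatocyte product, gives the clearest case. Its ratio was 3.84 on the DM array and 3.85 and 3.96 on the adult liver arrays, a difference of -0.06. Its Cy3 signal alone, in log2 units relative to the 75th percentile of each array, was 2.95 on the DM array against 10.58 and 9.85 in liver, a fall of over 7 log2 units (difference -7.27, adjusted p = 7.66e-05 by limma with Benjamini-Hochberg adjustment). Its Cy5 signal on the same scale was -0.74 on the DM array and 6.47 and 5.36 in liver. Cy5 was over 1 log2 unit lower on the DM array than in adult liver for 214 of 366 liver-enriched genes, and for 516 of all 21032 genes (2.45%). It was so for 78 of the 92 liver-enriched genes brightest in adult liver and for 27 of the 92 dimmest. The cause was not tested. The ratio is the measure fixed for the test, and a value is a ratio unless Cy3 is named. Most counts over a gene list are given by both measures, and a liver gene is described as reaching liver level only where both measures say so.

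**Figure D1:**
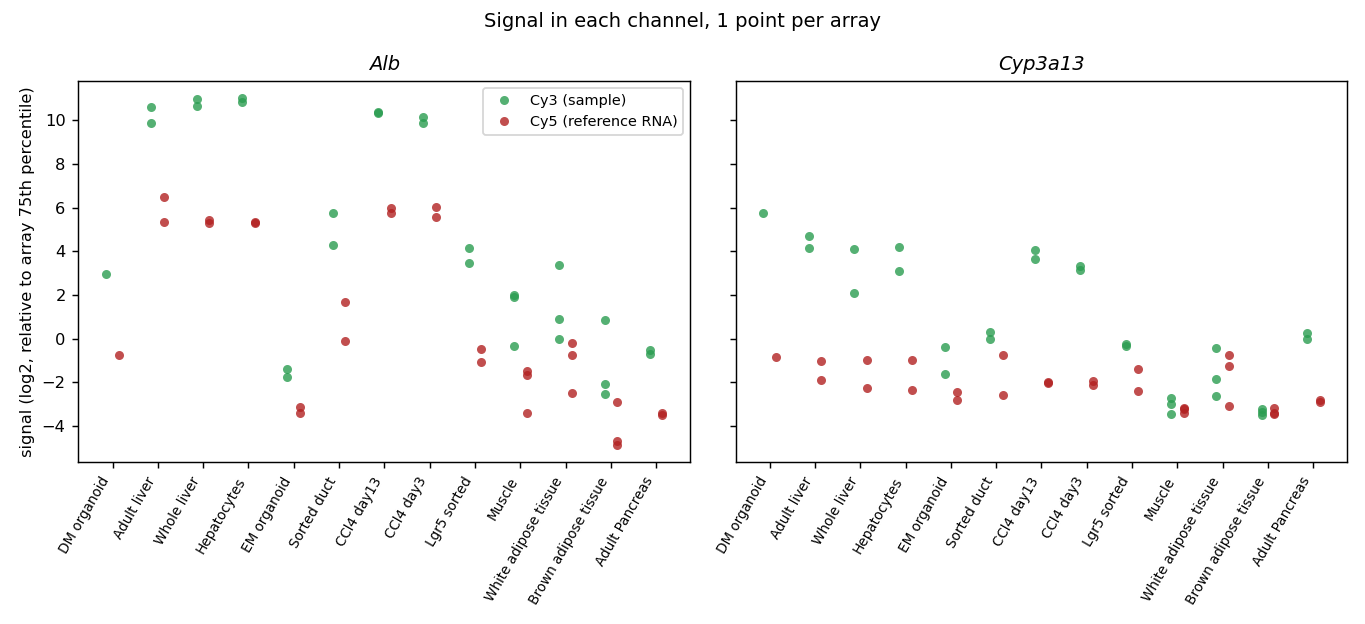
Signal of Alb and Cyp3a13 in each channel, in log2 units relative to the array's 75th percentile, with 1 point per array for all 13 groups. The Cy5 points of Alb, which show the same reference RNA everywhere, are high where the Cy3 points are high, 6.47 and 5.36 in adult liver against -0.74 on the DM array, while those of Cyp3a13 lie closer together.

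Between the DM organoid and adult liver, 5971 of 21032 genes were called at an adjusted p under 0.05 and a difference of at least 1 log2 unit, 28.4% of those tested, with 2924 higher in DM (13.9%) and 3047 lower (14.5%). By Cy3 alone 4791 were called (22.8%), with 2440 higher (11.6%) and 2351 lower (11.2%). The median difference over all genes was -0.08 by the ratio and 0.03 by Cy3. The genes highest above liver included keratins and secreted products of epithelia, and those lowest were mostly hepatocyte enzymes and secreted proteins.

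The top of the list was Krt20, a keratin of the surface epithelium of intestine and stomach that liver tissue lacks. Its ratio was 6.74 on the DM array and -3.31 and -3.60 in adult liver, where its probe (chr11:99289776-99289835, build mm9 as in the files) was not well above background on either array. The rise was 10.20 log2 units (SE 0.73, adjusted p = 1.11e-09), and since liver gives only an upper limit it is bounded as at least 813-fold. In expansion medium Krt20 was at -2.27 and -1.07, lower than in DM (adjusted p = 9.82e-08). Such bounds compare the Cy3 signal of the brighter group with the fifth percentile of signals well above background on each dim array, or with the dim probe's own signal where that is higher. This is a higher floor than the lowest signal above background and gives lower folds. The bounds are on the Cy3 scale, so where the ratio difference is smaller than the Cy3 difference a bound can exceed the fold that the ratio gives.

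Krt19, the keratin that marks cholangiocytes among liver cells, was second. It gave 5.68 on the DM array and -3.60 and -3.61 in liver (probe at chr11:100002392-100002451), a rise of 9.29 (SE 0.65, adjusted p = 9.59e-10) and of 9.24 by Cy3 alone. Unlike Krt20 it was already high in expansion medium, at 3.45 and 3.11. The other 8 of the 10 largest rises were S100a6, a calcium-binding protein of epithelial and dividing cells, at 8.79, Cyp2s1, an extrahepatic cytochrome P450, at 8.68, Clca1, a secreted product of goblet cells, at 8.58, Cyp2c65, a P450 of the gut, at 8.11, the GABA receptor subunit Gabrp at 7.69, mesothelin (Msln) at 7.59, the chemokine Cxcl5 at 7.44 and the tetraspanin Tspan1 at 7.33. Clca1 rose at least 375-fold, Cxcl5 at least 74.0-fold and Tspan1 at least 164-fold. Each of the 10 was also called by Cy3 alone.

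Cps1, the mitochondrial enzyme that starts the urea cycle, stood at the other end. Its ratio was 0.08 on the DM array and 9.72 and 9.96 in adult liver (probe at chr1:67277466-67277525), a difference of -9.76 (SE 0.57, adjusted p = 9.15e-11), and it was not above background on the DM array. It was at least 141-fold lower than in liver. The organoid in expansion medium stood at the same place, -0.03 and 0.00. The 10 largest falls by the ratio included Akr1c6 (17-beta-hydroxysteroid dehydrogenase, -10.58, at least 491-fold), Cps1, Slco1b2 (an organic anion uptake transporter, -8.94), Rgn (regucalcin, -8.86), Dpyd (pyrimidine breakdown, -8.72), Wfdc21 (-8.71), Fbp1 (gluconeogenesis, -8.67 by the ratio and -11.46 by Cy3, at least 489-fold), Pon1 (paraoxonase, -8.67) and Mup10 (a major urinary protein, -8.65, from a family of near-identical genes whose probes may cross-react). None of the 10 was above background on the DM array and each was above it on both liver arrays. Their differences therefore rest on a DM value at background level, and their order is not that of the bounds: Apoe, at least 841-fold lower, is not among the 10.

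**Figure D2:**
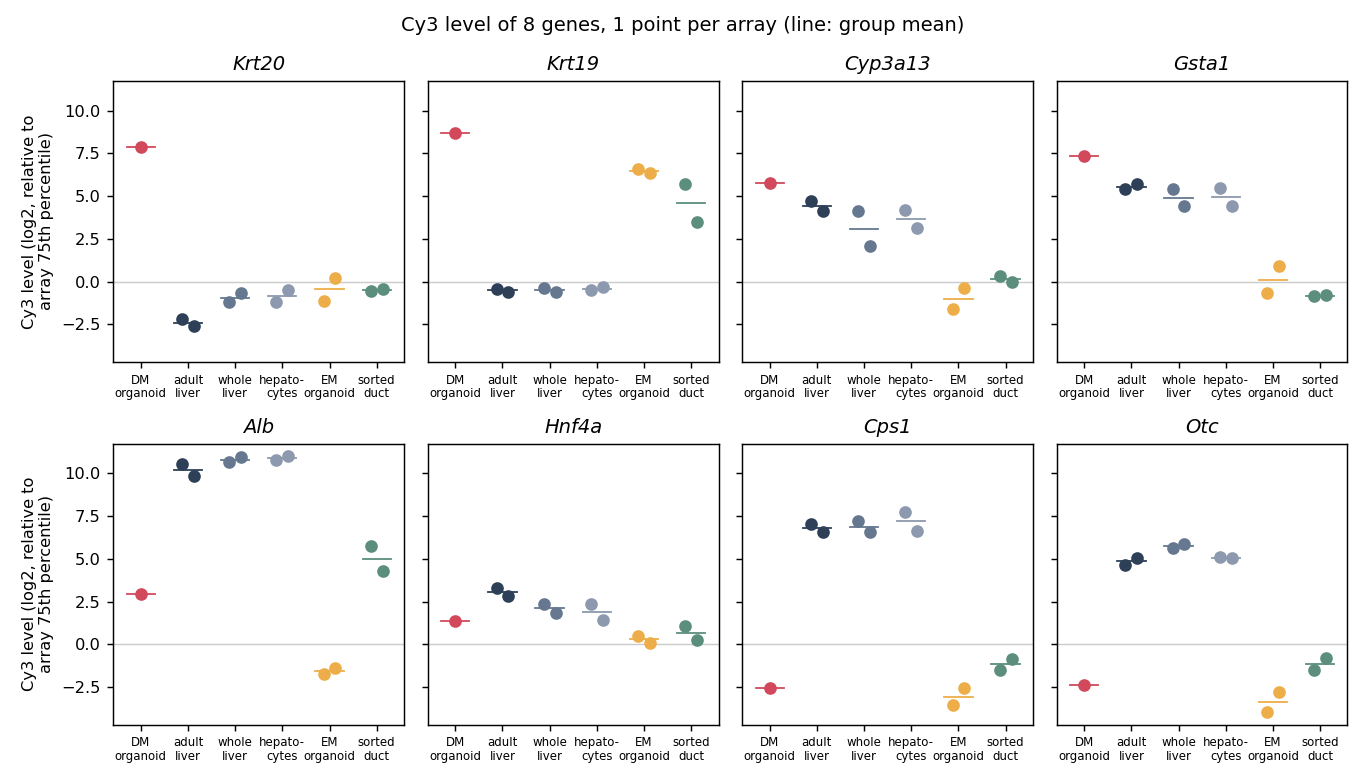
Cy3 level of 8 genes, in log2 units relative to the array's 75th percentile, with 1 point per array and a line at the group mean. The DM point lies far above every liver point for Krt20 and Krt19, close to them for Cyp3a13, between liver and expansion medium for Alb, and with the expansion medium points for Cps1 and Otc.

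Which liver genes reach the level of liver was asked of 366 liver-enriched genes, those above background on both whole liver arrays and at least 3 log2 units higher there than in each of pancreas, muscle and both adipose tissues. Neither the DM array nor the adult liver arrays entered that choice. Albumin itself is not on the list, since its ratio in whole liver was not 3 log2 units above every one of those tissues. Of the 366 genes, 233 (63.7%) were not above background on the DM array against the background of 33.3%, 95 (26.0%) were above background but lower than liver by 1 log2 unit or more, and 38 (10.4%) were above background and within 1 log2 unit of liver or higher. Of all genes above background on both adult liver arrays, 57.5% were in that last class. By Cy3 alone 25 of the 366 were at liver level (6.83%), and 21 (5.74%) were so on both measures, against 55.7% of all genes above background on both liver arrays. No liver-enriched gene was called higher in DM, 315 were called lower by the ratio and 325 by Cy3 alone, and the median difference was -4.83 by the ratio and -5.85 by Cy3. Since the list was chosen for high values in liver, its fall in a culture is a description and not a test.

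The limit of 1 log2 unit is a convention. The genes just inside it by the ratio were Cyp4a12a at -0.90, Fabp2 at -0.98, Cyp2d12 at -0.99 and Saa2 at -0.99, and the nearest outside were Idi1 at -1.03 and Hsd17b7 at -1.04. A limit of 2 log2 units would place 65 genes at liver level by the ratio.

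**Figure D3:**
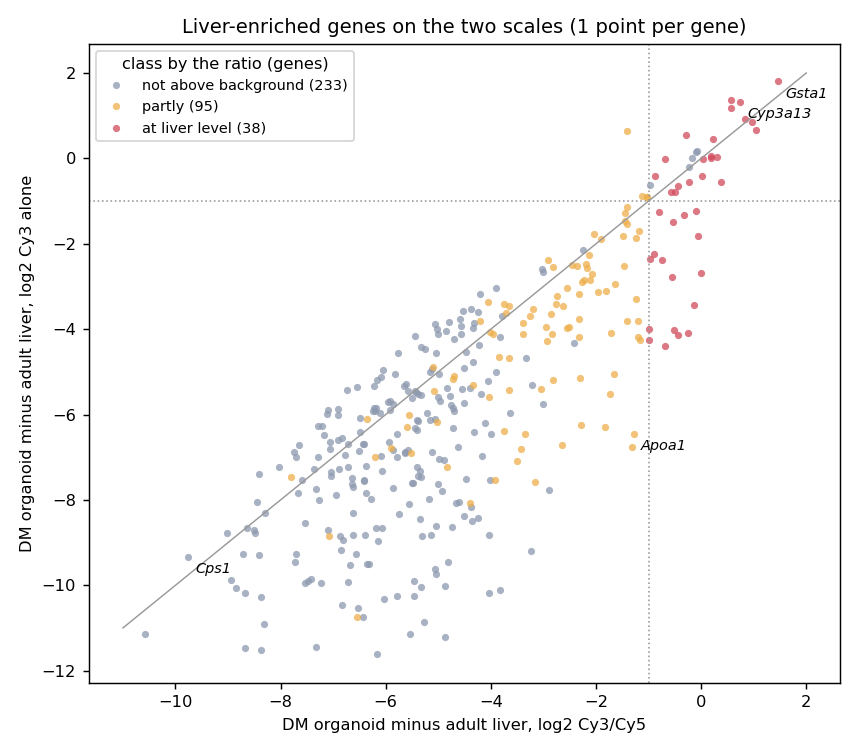
Difference between the DM organoid and adult liver for the 366 liver-enriched genes, by log2 Cy3/Cy5 (horizontal) and by log2 Cy3 alone (vertical), coloured by class, with dotted lines at -1 and a line of equality. Few genes lie above -1 on both axes, and many points fall below the line of equality, Apoa1 among them at -1.28 and -6.46.

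The 21 genes at liver level on both measures are named here because they answer the question, and most were also taken by the rule for named genes. Gsta1, a glutathione transferase, gave 5.90 on the DM array and 4.32 and 4.56 in liver. Its difference of 1.46 (95% interval 0.03 to 2.88, adjusted p = 0.105) was the highest of the liver-enriched genes and did not pass the threshold, although it did in a fit of the 3 arrays alone. Cyp3a13, a P450 of liver and gut (probe at chr5:138335318-138335377), gave 6.75 against 5.82 and 6.20, a difference of 0.74 (-0.12 to 1.60) and of 1.32 by Cy3. Both lay above the 2 liver arrays on each measure.

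Among esterases and conjugating enzymes, the carboxylesterases Ces2a, Ces2b and Ces2c, which split ester drugs and lipids, were all at liver level. Ces2b gave 7.31 on the DM array and 5.50 and 7.04 in liver (difference 1.04, -0.17 to 2.26), Ces2c 6.24 against 5.32 and 6.57 (0.29), and Ces2a 5.29 against 4.83 and 5.29 (0.23). Adult liver replicate 1 was the lower of the pair for each, and without replicate 2 the difference of Ces2b became 1.81 and passed the threshold. Gsta2 (0.57), a probe on chromosome 9 that has no gene name here (A_51_P305138, 0.58), the aldo-keto reductase Akr1c12 (0.20), the sulfotransferase Sult1b1 (-0.58) and Cyp2d34 (0.39) were also within the limit. The Ces2, Gsta, Akr1c and Cyp2d families have near-identical members, so that which member gave the signal is uncertain.

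Apoa4, an apolipoprotein that mice make in both intestine and liver, gave 5.24 on the DM array and 3.73 and 4.82 in liver (0.96, -0.76 to 2.68). Onecut2, a transcription factor of hepatocyte and duct precursors, was at 4.97 against 4.12 and 4.13 (0.84), with its 3 probes between 0.26 and 1.20. Anks4b, a scaffold protein of the epithelial brush border, was at 5.29 against 4.93 and 5.29. Other genes of the 21 were the sterol synthesis enzyme Msmo1 (0.03), the cholesterol carrier Stard4 (-0.29), the steroid reductase Srd5a1 (-0.23), the iron exporter Slc40a1 (-0.89), Ggt6 (-0.69), Clec2d (0.02) and Gbp8 (-0.43). A difference that misses the threshold does not show equal levels: the 95% interval lay within 2 log2 units of 0 for 14 of the 21 by the ratio and for 13 by Cy3. The liver arrays themselves differed most for Clec2d, at 1.21 and 4.08.

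**Figure D4:**
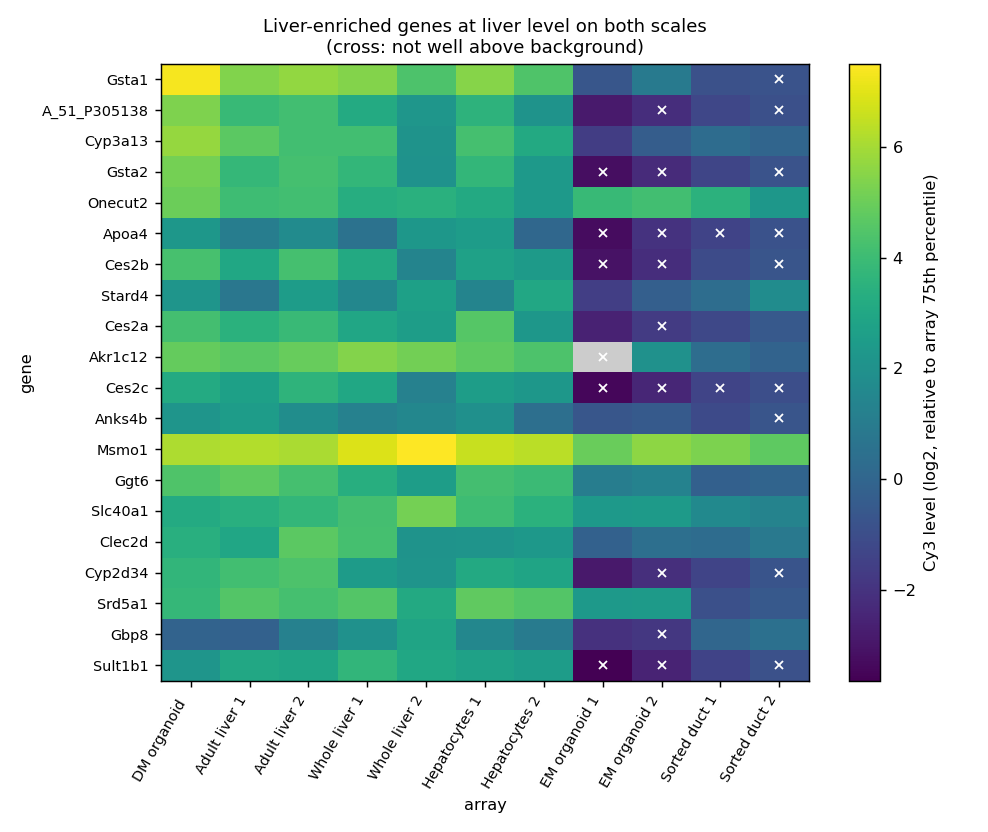
Cy3 level of 20 of the 21 liver-enriched genes at liver level on both measures, in log2 units relative to the array's 75th percentile, for the DM organoid, the liver groups, the EM organoids and sorted duct cells. Crosses mark arrays where the probe was not well above background and grey an outlier spot. Of the 21 genes 16 were called higher in DM than in the EM organoids by the ratio, and Onecut2 and Msmo1 are bright in both media.

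A further 17 liver-enriched genes were at liver level by the ratio only, and 13 of them were called lower by Cy3 alone. Cyp2d26 gave a ratio of 6.04 on the DM array and 6.00 and 6.10 in liver, but its Cy3 signal fell by 2.68 (adjusted p = 0.0123). Cyp2d9 differed by -0.24 by the ratio and by -4.09 by Cy3. The anticoagulant Proc gave -0.52 and -4.03, the complement factor Cfb -0.56 and -2.78, and Fabp2, a fatty acid carrier named for the gut, -0.98 and -2.36. The other probe of Fabp2 gave -3.15 by the ratio, outside the limit. Cy5 was over 1 log2 unit lower on the DM array for 14 of these 17 genes and for 0 of the 21. Because the 2 sets were parted by the ratio and by Cy3, this contrast in Cy5 follows largely from how they were chosen.

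Among the 233 genes not above background on the DM array were the 15 lowest of the liver-enriched genes. Beside those named above they were a probe with a transcript name only (ENSMUST00000080361, -9.03), Hsd11b1, which regenerates active glucocorticoid (-8.51, at least 126-fold lower), the peptidoglycan amidase Pglyrp2 (-8.49), the plasma protein fetuin B (Fetub, -8.45, at least 119-fold), Mtarc1 (-8.42), the succinate receptor Sucnr1 (-8.41) and Apoh (-8.37, at least 267-fold). The other probe of Pglyrp2 gave -1.53. Of the 233 genes, 228 were called lower by each measure. The 5 that were not called by the ratio included Sult3a1, Hao2, Sult2a2 and Slc22a26, named for that reason.

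The classes can be set beside the sorted duct cells, which had no part in defining them. Of the 21 genes at liver level on both measures, 12 were above background on both sorted duct arrays and 2 on neither, while of the 233 absent genes 65 were on both and 98 on neither. Of the 95 genes at part of the liver level 59 were on both duct arrays and 5 on neither, and of the 366 genes 149 and 107. Among all 21032 genes tested 11838 were on both and 4496 on neither, so the share of the 21 on both lay near that of all genes. The median Cy3 level in adult liver was 3.82 for the 21 genes, 5.91 for the 95 at part of the liver level and 4.88 for the 233 absent genes. For all 366 it was 5.06. By the median the absent genes were thus brighter in liver than the 21 and dimmer than the 95. Whether dimness in liver bears on absence was not tested.

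Plasma proteins, the export products of hepatocytes, were low throughout. Of 27 listed and tested, 24 were called lower by the ratio and all 27 by Cy3 alone, with medians of -4.71 and -7.62, and 16 were not above background on the DM array. Antithrombin (Serpinc1) was at 0.00 on the DM array and 8.22 and 8.39 in liver and was not above background, with its probes between -8.31 and -5.79. The fibrinogen chain Fgg was at 0.08 on the DM array and 8.09 and 8.79 in liver (-8.37, adjusted p = 5.90e-05), with a Cy3 difference of -11.52, at least 527-fold lower. Prothrombin (F2) was at -1.11 against 6.31 and 6.13, with a Cy3 difference of -11.44, at least 404-fold lower, and apolipoprotein H and fetuin B are given above.

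Of the 27 plasma proteins 11 were above background on the DM array. Transthyretin (Ttr), the thyroxine carrier, was at 3.85 on the DM array and 5.94 and 6.42 in liver, a difference of -2.33 (adjusted p = 0.00145), and by Cy3 it fell by 3.76. The log ratio written by the scanner software gave the opposite sign for Ttr, 0.50, with no call, and quantile normalization gave -1.06, also with no call. Transferrin (Trf), the iron carrier, was at 6.05 against 6.34 and 5.71 by the ratio, while its Cy3 signal fell by 2.35 (adjusted p = 0.0238). Alb and Trf were above background on the DM array, so their transcripts were detected, but not at liver level by Cy3. By Cy3 Trf was at 6.24 on the DM array and higher in expansion medium, at 7.47 and 6.96. Alb was at 2.95 on the DM array and -1.74 and -1.37 in expansion medium. For Alb, sorted duct cells gave 5.76 and 4.27 and white adipose tissue 3.39, 0.00 and 0.92, so such a level is not particular to the DM organoid.

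Of the coagulation and complement factors 24 of 26 were called lower by the ratio, 26 by Cy3, and 20 were not above background. Complement C3, the central complement protein, was at -3.39 on the DM array and 4.01 and 4.18 in liver, a difference of -7.49, and was far higher in expansion medium, at 3.14 and 3.48. Its probes disagreed in size, from -7.49 to -3.82. C5 (Hc) fell by 7.48 and was not above background. Of the 13 acute phase and iron genes 10 were lower and 1 higher by the ratio, and 11 and 1 by Cy3. The higher gene by the ratio was Lcn2, a siderophore-binding protein that epithelia also make, at 2.85 on the DM array, -0.67 and 0.48 in liver and 4.54 and 5.05 in expansion medium. Orm1 differed by -6.81, Saa4 by -6.29 and the transferrin receptor Tfr2 by -5.49. Lbp, which binds bacterial lipopolysaccharide, differed by 0.86 and was not called, though it was without adult liver replicate 2, at 1.06.

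Among 20 apolipoproteins and genes of lipid export 15 were called lower by the ratio and 18 by Cy3. Apoe fell by 7.02, from 6.18 and 5.73 in liver to -1.06 on the DM array, and was not above background. By Cy3 alone it fell by 10.94, and it was at least 841-fold lower. Apof fell by 7.74 and the paraoxonase Pon1 as given above. Apoa4, Apob and Apoa1, which serve fat absorption in the gut as well as export from liver, were above background on the DM array. Apoa4 was at liver level. Apob, the scaffold of chylomicrons and very low density lipoprotein, was at 5.11 against 6.59 and 7.05, a difference of -1.71 (adjusted p = 0.00851) that was -1.48 and no longer passed the test without adult liver replicate 2, and -0.02 by the scanner software's log ratio. By Cy3 alone Apob fell by 4.08 (adjusted p = 8.23e-05). Apoa1, the main protein of high density lipoprotein, was at 4.19 against 5.70 and 5.24, not called by the ratio (-1.28) with a difference of -6.46 by Cy3. The probes of Apob ranged from -4.14 to -1.71. All 3 genes were higher than in expansion medium, where Apob was at -0.04 and -0.01 and Apoa1 at 0.23 and 0.41.

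Cytochrome P450 genes went both ways. Of 43 tested, 24 were called lower by the ratio and 5 higher, 27 and 6 by Cy3, and 23 were above background on the DM array. The enzymes most typical of hepatocytes around the central vein were absent: Cyp2e1, which oxidises ethanol, was at 0.33 on the DM array and 5.63 and 5.93 in liver (Cy3 difference -10.54, at least 247-fold lower), and Cyp1a2, which oxidises caffeine, at 0.96 against 3.86 and 4.09 (Cy3 difference -5.76, at least 20.6-fold lower). Cyp4a14 differed by -8.29, Cyp3a16 by -7.33 and Cyp2c23 by -7.27. Cyp3a11, the main drug-oxidising P450 of mouse liver, was detected at 2.23 against 5.50 and 5.27 and differed by -3.15, by -7.59 by Cy3, while its relative Cyp3a13 was at liver level. Cyp2s1, Cyp2c65 and Cyp2c66 (6.29) were the 3 highest, and each was also called higher than in expansion medium. Cyp2c66 was at 6.52 on the DM array, 0.28 and 0.19 in liver and 0.86 and 0.00 in expansion medium.

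Of the conjugating enzymes 27 of 46 were called lower and 2 higher by the ratio, 29 and 2 by Cy3, and 32 were above background on the DM array. The higher pair was Sult1c2, a sulfotransferase of stomach and kidney, at 5.44 against 1.70 and 2.20, and Gsta4, which detoxifies lipid aldehydes, at 3.61 against 0.90 and 1.21. Nnmt, which methylates nicotinamide, fell by 8.29 by Cy3. By the ratio Ugt2b1 differed by -7.29 and the alcohol dehydrogenase Adh4 by -6.84, and none of these was above background. Members of the Ugt2b, Cyp2c, Cyp2d and Cyp3a families resemble each other closely enough for probes to cross-react.

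Bile acid genes of hepatocytes were lower without exception among the 24 listed, on both measures, and 17 were not above background. Cyp7a1, the rate-limiting enzyme of bile acid synthesis, was at 0.19 on the DM array and 6.51 and 6.05 in liver (at least 11.8-fold lower). Its 2 probes gave differences of -6.09 and -2.78. Cyp7b1 differed by -6.63 and the fatty acid and bile acid ligase Slc27a2 by -7.29. The uptake transporter Slc10a1 was at -0.23 against 5.73 and 5.39 (at least 31.7-fold lower), and the export pump Abcb11 at 0.83 against 6.24 and 6.52 (Cy3 difference -8.09, at least 110.3-fold lower). The bile acid receptor Nr1h4 was detected at 2.83 against 5.20 and 4.94 and fell by 2.24, and was higher than in expansion medium (-0.97 and -1.16, adjusted p = 1.23e-05). Its target Nr0b2 fell by 2.65 from liver and was not above background.

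Bile acid genes of ileum and cholangiocytes were listed apart. Of 8 listed, 5 were tested, 2 were called higher by the ratio and 1 by Cy3, and 0 lower. Slc10a2, the sodium-dependent carrier that takes up bile acids in ileum and bile duct, was at 4.95 on the DM array and 3.13 and 4.72 in liver (1.02, not called, but called without adult liver replicate 2, at 1.82). Slc51b, a subunit of the basolateral exporter, was at 3.76 against 0.78 and 1.37 (adjusted p = 5.39e-06), and by Cy3 it was not called (difference 1.96). The efflux pump Abcc4 rose by 3.27, with its other probe at 1.09, and Abcc3 differed by 1.38 without a call.

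All 14 genes of the urea cycle and nitrogen handling were called lower on both measures. After Cps1, the next enzyme Otc was at -0.07 on the DM array and 7.66 and 8.27 in liver (at least 40.0-fold lower), with its 3 probes between -8.03 and -2.29. Nags, which makes the activator of Cps1, fell by 7.04. The 2 cytosolic enzymes in the middle of the cycle were present. Ass1 was at 2.69 against 4.24 and 3.61, a difference of -1.23 that was -0.92, under the limit of 1, without adult liver replicate 1. Asl was at 0.98 against 3.91 and 3.99, a difference of -2.97. By Cy3 alone Ass1 fell by 3.30 and Asl by 2.67, so neither was near liver level on that measure. Arginase (Arg1), the last step, was not above background and, with a Cy3 difference of -8.32, at least 98.2-fold lower. Glul, glutamine synthetase, fell by 2.52 and was detected. Transcripts of the middle steps were therefore detected, and those of Cps1, Otc and Arg1 were not.

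Of the genes of amino acid breakdown 30 of 31 were called lower on each measure and 24 were not above background. Tat, tyrosine aminotransferase, was at 0.38 on the DM array and 5.42 and 5.62 in liver (Cy3 difference -8.82, at least 158-fold lower), the lysine enzyme Aass differed by -7.59 and Dmgdh by -6.64. The 1 gene not called was Sdsl, at 1.81 against 1.66 and 1.81.

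Glucose enzymes of the liver type and their counterparts of other tissues moved in opposite directions. Of 12 liver-type genes 10 were lower and 0 higher by the ratio, and 11 by Cy3. Fbp1 was at -1.35 against 6.89 and 7.76, glycogen phosphorylase Pygl differed by -8.49, the glucokinase regulator Gckr by -6.86 and glucose-6-phosphatase (G6pc), the last step of glucose release, by -4.18. The other probe of Pygl gave -1.46. Of 11 isoforms of other tissues 10 were higher by the ratio, 9 by Cy3 and 0 lower on either. Aldoa rose by 4.81, from -3.77 and -3.90 to 0.98, the pyruvate kinase Pkm by 4.52 and the glucose carrier Slc2a1 by 3.94. The probes of Pkm ranged from 1.30 to 4.52. Pkm was at 0.72 and -0.48 in expansion medium, where DM did not differ by the test.

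Fatty acid oxidation was lower but present. Of 19 genes 17 were called lower on each measure, and 17 were above background on the DM array. Bdh1 differed by -4.72 and Acsl1 by -3.66, and both were detected. Fabp1, the fatty acid carrier of liver and gut, was at 5.81 on the DM array, 9.18 and 9.44 in liver and -0.17 and -0.14 in expansion medium. Its difference of -3.50 from liver (adjusted p = 0.0130) was -3.37 and no longer passed the test without adult liver replicate 2, while by Cy3 alone it fell by 7.08 (adjusted p = 6.83e-06). Its rise by 5.96 over expansion medium was called (adjusted p = 5.65e-04).

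**Figure D5:**
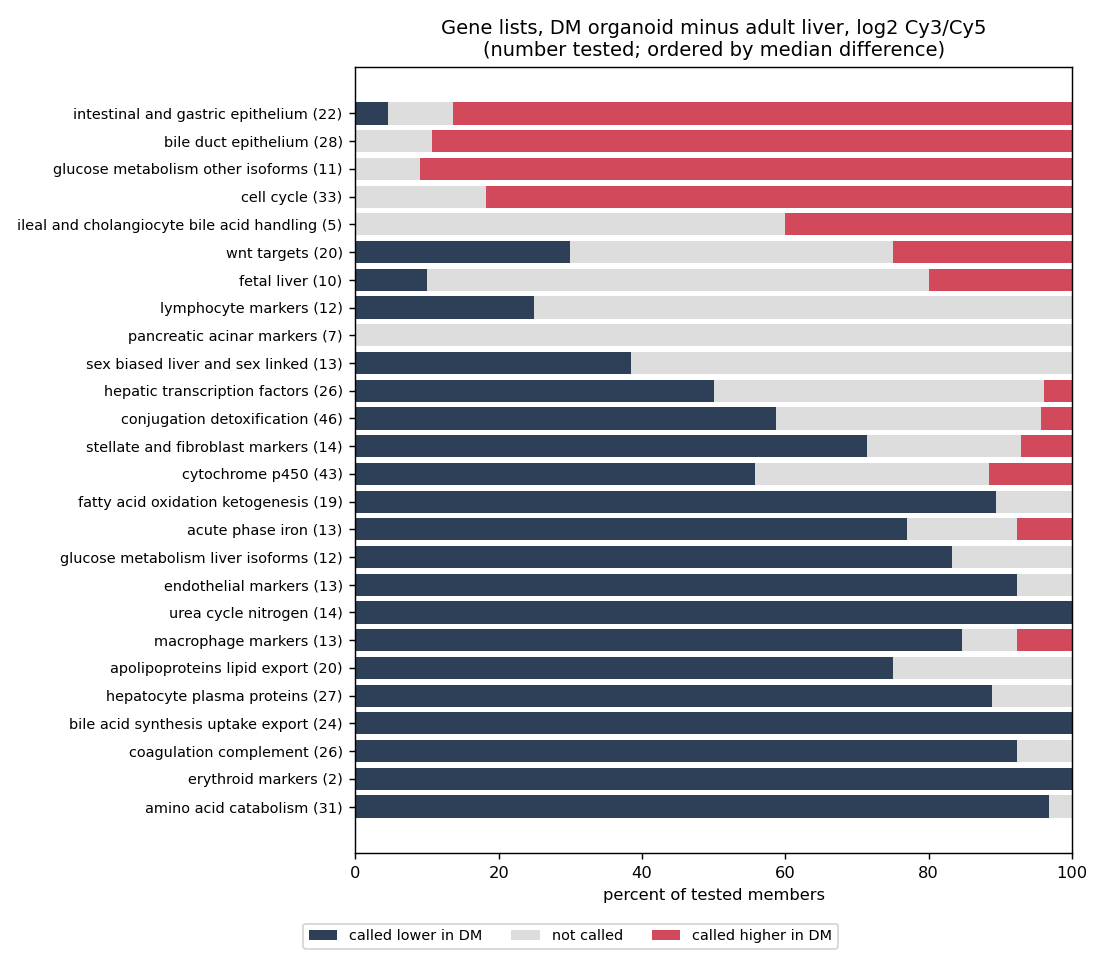
Share of the tested members of each gene list that was called lower, called higher or not called between the DM organoid and adult liver by log2 Cy3/Cy5, ordered by the list's median difference. All 24 bile acid genes of hepatocytes and all 14 urea cycle genes are lower, and 25 of 28 duct genes and 19 of 22 intestinal and gastric genes are higher.

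The transcription factors of hepatocytes are the regulators above these enzymes. Of 26 tested 13 were lower and 1 higher by the ratio, 13 and 0 by Cy3, the median difference by the ratio was -1.54, and 17 were above background on the DM array. Hnf4a, the nuclear receptor needed for hepatocyte identity, was at 4.59 on the DM array and 5.65 and 5.91 in liver. It was called lower (-1.19, adjusted p = 0.00145), but not by Cy3 alone (-1.71), and against whole liver or hepatocytes the sign turned, to 0.34 and 0.85, with no call. Cebpa fell by 2.97 and was detected. Prox1 fell by 4.62 and was not above background, and so were the drug and steroid receptors Nr1i2 (-3.73) and Nr1i3 (-3.84). The probes of Prox1 ranged from -4.62 to -0.94. Onecut2 (0.84) and Gata6 (0.85) were not called.

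To show the promoter letters beside these values, windows from 250 bases before to 50 after each start (RefSeq, GRCm38.p6) were searched on both strands for a 9-letter HNF4 motif, CAAAGTCCA, and an 8-letter motif of the intestinal factor CDX, TTTATNGC. Windows were found for 13226 of the 21032 genes and for 274 of the 366 liver-enriched ones. The HNF4 letters were in 4.38% of liver-enriched genes with a window, against 0.590% of all tested genes and 0.475% of all 32851 windows. The CDX letters were in 2.55% of liver-enriched genes and 2.58% of all tested genes, and in 3 of the 21 intestinal and gastric genes with a window (14.3%). The HNF4 letters were in 3 of those 21 genes as well (14.3%). Of the 12 liver-enriched genes with the HNF4 letters 5 were absent on the DM array and 1, Sult1b1, was at liver level. These are 2.84% of the 176 absent genes with a window and 7.69% of the 13 genes at liver level on both measures with a window. A match is a description of the letters and not a binding site. The 140 bases before the start are printed for 5 genes with different outcomes, 5' to 3' on the gene's strand, with matches in capitals. Cyp2c65 (chr19:39060866-39061005, plus strand), Cyp2c70 (chr19:40187287-40187426, minus strand) and Cyp3a11 (chr5:145879855-145879994, minus strand) share the HNF4 letters, Sis (chr3:72967864-72968003, minus strand) holds the CDX letters on its other strand, and Alpi (chr1:87101607-87101746, minus strand) both the CDX and the HNF4 letters.
Cyp2c65: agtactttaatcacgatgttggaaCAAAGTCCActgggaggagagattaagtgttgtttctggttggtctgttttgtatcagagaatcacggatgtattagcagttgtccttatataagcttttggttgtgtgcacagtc
Cyp2c70: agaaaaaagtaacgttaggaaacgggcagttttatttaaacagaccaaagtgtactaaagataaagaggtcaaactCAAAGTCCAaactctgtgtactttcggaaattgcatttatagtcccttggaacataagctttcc
Cyp3a11: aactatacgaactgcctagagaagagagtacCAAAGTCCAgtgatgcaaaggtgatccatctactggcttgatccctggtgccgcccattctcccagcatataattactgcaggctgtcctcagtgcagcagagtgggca
Sis: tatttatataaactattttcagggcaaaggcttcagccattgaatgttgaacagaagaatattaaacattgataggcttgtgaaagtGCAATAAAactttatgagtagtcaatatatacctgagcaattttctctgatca
Alpi: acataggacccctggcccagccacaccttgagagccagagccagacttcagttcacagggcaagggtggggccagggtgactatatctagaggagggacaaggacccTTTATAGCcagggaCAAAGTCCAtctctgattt
With the same HNF4 letters, Cyp2c65 was 8.11 above liver, Cyp3a11 -3.15 and detected, and Cyp2c70 -6.57 and not above background. Sis, the sucrase-isomaltase of the small intestine, rose by 4.25, and the intestinal phosphatase Alpi by 1.51, the latter not called by Cy3 alone.

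Duct epithelium genes stood above liver. Of 28 tested, 25 were called higher by the ratio, 21 by Cy3 and 0 lower, and 26 were above background on the DM array. Epcam, a surface adhesion protein of duct cells, was at 3.30 on the DM array and -3.25 and -3.13 in liver (6.49, adjusted p = 6.40e-08). Prom1, a membrane protein of progenitor-like epithelia, rose by 7.17 (at least 88.3-fold) and the tetraspanin Tspan8 by 7.07. Sox9, a transcription factor of ducts, rose by 2.83, but its 3 probes ranged from 0.08 to 2.83. Spp1, osteopontin, rose by 3.69 and was lower than in expansion medium (-2.75 against 0.28 and 0.33). The water channel Aqp1 was not called (-0.27). Epcam and Sox9 did not differ from expansion medium by the test (-0.32 and -0.34).

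Intestinal and gastric genes were listed as a second group. Of 28 listed 22 were tested, and 19 were higher and 1 lower by the ratio, 17 and 2 by Cy3. Cdx1, Muc13, Atoh1, Reg4, Gkn1 and Gkn2 were listed but not tested, so these counts hold only for members that passed the filter. Of the 22 genes 10 were not above background on either liver array. Such a gene passed through other arrays, which can include the DM array where it is high. The keratin Krt20 and the goblet cell product Clca1 led, with Cyp2c65. Clca1 was at 8.73 on the DM array, 0.20 and 0.11 in liver and 0.13 and 0.36 in expansion medium. Cdx2, the transcription factor that specifies intestine, chosen here as a listed marker after its value was seen, was at 5.48 on the DM array and 0.07 and 0.11 in liver (adjusted p = 1.03e-13), with 1.67 and 1.72 in expansion medium. The brush border protein Vil1, chosen likewise, was at 5.21 against 0.26 and 0.63. The 1 gene called lower was Anpep, an aminopeptidase of liver and gut, at -0.79 against 2.31 and 2.65. Whether intestinal and hepatic transcripts came from the same cells was not tested.

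The organoid RNA also carried more transcripts of dividing cells. Of 33 cell cycle genes 27 were higher on each measure and 0 lower. Mki67 was at -1.66 on the DM array and -5.37 and -5.06 in liver (3.56, adjusted p = 4.99e-07), Kif20a rose by 3.56 and Birc5 by 3.07. The level of Mki67 in expansion medium was -1.74 and -1.98, from which DM did not differ by the test. By the ratio 3 of the 33 genes were called lower in DM than in expansion medium, and 0 higher, against 4.02 and 6.24% of all genes tested.

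Wnt target genes went both ways, with 5 higher and 6 lower of 20 tested by the ratio, and 5 and 4 by Cy3. Among all genes tested 13.9% were higher and 14.5% lower by the ratio, and 11.6 and 11.2% by Cy3. Lgr5, the gene by which the founder cells were isolated, was at -0.19 on the DM array, where it was not above background. It was at 3.44 and 3.35 in adult liver and 3.79 and 4.52 in expansion medium. The other liver arrays gave lower ratios for Lgr5, 0.60 and 0.28 in whole liver and 1.52 and 0.97 in hepatocytes. Its fall from adult liver is bounded only as at least 1.83-fold. Axin2, a feedback inhibitor of the pathway, was at -0.86 on the DM array and -0.15 and -0.06 in adult liver. It was above background on none of these 3 arrays, and was at 2.30 and 2.44 in expansion medium. Nkd1 differed by -4.03 and Tnfrsf19 by -3.14 from liver, while Ephb3 rose by 4.19, Ccnd1 by 3.94 and Cd44 by 3.01. The other probe of Nkd1 gave -0.78, and the probes of Cd44 ranged from 1.30 to 3.82. Of 10 fetal liver genes 2 were higher and 1 lower by the ratio, and 2 and 0 by Cy3. Counts this small lie near the shares of all genes tested and say little about the list. Alpha-fetoprotein (Afp) was at -1.93 on the DM array and -2.62 and -1.78 in liver, with no call. Igf2bp2 rose by 2.64 and Gpc3 by 2.42.

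Liver tissue also holds endothelial cells, stellate cells, macrophages and blood cells, and their markers moved with the comparison. None of the 13 endothelial markers was above background on the DM array, all 13 were on both liver arrays, and 12 were called lower by the ratio and 11 by Cy3, Clec4g with -6.09 and Stab1 with -4.86. The second probe of each gave a smaller difference, -0.46 for Clec4g and 0.14 for Stab1. The summed Cy3 level of the list was 1.57 in DM against 5.83 and 5.72 in liver, in log2 units. Of 13 macrophage markers 11 were lower on each measure, among them Cd5l (-7.05), Lyz2 (-6.54, other probe -2.02) and Marco (-5.40), and 1 was higher, Cd14 (4.69), which epithelia can also express. Of 14 stellate cell and fibroblast markers 10 were lower by the ratio and 9 by Cy3, with Dcn at -6.69 (other probe -0.24) and Colec11 at -5.34, and Ecm1 was higher at 1.29, though not by Cy3. Lymphocyte markers gave 3 lower of 12 by the ratio and 2 by Cy3, against 14.5 and 11.2% of all genes tested. Hba-a1 and Alas2 of red cells were both lower on each measure, and 0 of 7 pancreatic acinar markers was called on either. The 366 liver-enriched genes include some of these markers, Clec4g, Colec11, Cd5l, Clec4f and Vsig4, all not above background on the DM array. With isolated hepatocytes in place of adult liver 317 of the 366 genes were called lower, against 315, and whether they were the same genes was not counted. The part of other cells in these results was not tested.

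The DM array shares its RNA with the comparison to expansion medium, so the values are given side by side and not as separate evidence. Y-linked transcripts also differed between the DM and EM organoids, as given below. A difference in sex, if there was one, cannot be told apart from medium in these counts. Of the 366 liver-enriched genes, 87 were called higher in DM than in the 2 EM organoids and 6 lower by the ratio, and 72 and 5 by Cy3. Among all 21032 genes 6.24% were called higher and 4.02% lower by the ratio, and 4.10 and 2.98% by Cy3. Of the 21 genes at liver level on both measures 16 were higher than in expansion medium by the ratio. Of the 95 at part of the liver level 54 were higher, and of the 233 absent genes 4 were, with 171 above background on neither EM array. Ces2b was at 7.31 in DM and -0.25 and -0.10 in expansion medium (7.48, adjusted p = 2.56e-08), the largest such rise, followed by Gsta1 (6.92). Cyp3a13 rose by 5.18 and Sult1b1 by 5.66. Conjugating enzymes had 26 of 46 members higher than in expansion medium and P450 genes 21 of 43, against 2 of 27 plasma proteins, 0 of 26 coagulation and complement genes and 2 of 31 genes of amino acid breakdown.

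The arrays also differ in Y-linked transcripts. Eif2s3y was at 1.87 on the DM array, 2.45 and 2.84 in adult liver and -2.96 and -2.64 in expansion medium, and Ddx3y at 0.13, 1.72 and 2.16, and -2.93 and -2.45. The labels do not state the sex of the animals. Cyp4a12a, a P450 of male liver, was at 4.36 on the DM array, 4.98 and 5.54 in liver and -0.10 and -0.51 in expansion medium. Cyp3a41a, a P450 of female liver, fell by 7.09 from liver and was higher than in expansion medium. A difference in sex, if there was one, cannot be told apart from medium for any gene compared between the DM and EM organoids.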

How the data were processed

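Deposited, per the file headers, were each spot's median intensity and local background in both dyes, flags, and a log10 ratio of Cy5 over Cy3 from Agilent Feature Extraction (10.5.1.1 in the headers, 8.5.1.1 in the submitters' processing notes). That log10 ratio stands again in the deposited series matrix (largest difference 0) and served only as a check. Deposited flags gave spots well above background and outliers (0.688% left out).

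Intensities were corrected with normexp (offset 50) and loess within arrays in limma 3.58.1 (R 4.3.3), with the 1639 controls of 45018 spots at weight 0, giving log2 ratios for 41174 probes. A gene needed 1 probe whose Cy3 was well above background on 2 arrays or more, and the brightest probe stood for a gene. There were 21032 genes, of which 16783 were named through RefSeq and 4249 keep the file's name. Positions are mm9, per the files. One model with 13 group means was fitted to 28 arrays with lmFit and eBayes (15 residual and 4.41 prior degrees of freedom). It was tested on simulated data (20171 genes): for DM against adult liver 15 of 67 changes of 1 log2 unit and 50 of 67 of 2 log2 units were recovered, so small changes are often missed. All tests were two-sided, with Benjamini-Hochberg adjustment over all genes. Named genes are the 10 largest rises and falls, the 15 highest and lowest liver-enriched genes, the 3 highest and lowest of each of 26 lists, and a fixed set. Members and lists were chosen with earlier results of these data known. Alternatives were other normalizations, filters, probe rules, blocks, liver references and left-out arrays. Some genes that the rule names are not reported here.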

Additional observations from a re-analysis of the deposited data

Results flagged for a closer look

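The DM organoid array had 24 probes that were well above background on it and on no other of the 28 arrays. These probes were not tested, since a probe needed 2 such arrays, and the arrays of the series had between 8 and 301 probes of that kind each. The genes were picked after their values were seen. The highest ratios were those of Lypd8, a protein of colon epithelium, at a log2 ratio of 7.28 and 5.99 for its 2 probes. Slc51a, the other subunit of the bile acid exporter, whose partner Slc51b is described in the report, gave 4.39 and 3.18. Muc13, an epithelial mucin, gave 4.97, the intestinal transcription factor Isx 5.03, the sulfate carrier Slc13a1 4.62, Trim31 5.07 and Clca4a, a relative of Clca1, 4.40. Fgf15, the hormone by which ileum signals to liver, gave 1.86. Muc13, Slc51a and Fgf15 are members of the gene lists that were not tested for this reason. When 1 array above background was enough for testing, 4 bile acid genes of ileum and cholangiocytes were called higher in place of 2. Probes such as those of Slc51a and Fgf15 pass that filter only through the DM array, where they are high. Their calls are therefore largely set by the filter and add no support.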

How the results depend on the processing

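The counts of liver-enriched genes and of those at liver level moved with several choices. The scanner software's log ratio gave 569 liver-enriched genes, with 84 at liver level and 378 not above background. By Cy3 alone 25 were at liver level, on both measures 21, with a limit of -2 log2 units 65, and with a list threshold of 4 log2 units 18 at liver level, 61 in part, 55 higher and 3 lower than expansion medium. Leaving out genes whose Cy5 differed by over 1 log2 unit, a choice made after seeing the data, kept 151 liver-enriched genes, with 24 at liver level, 51 in part, 76 not above background, 118 called lower and 44 higher than expansion medium. Quantile normalization called 3969 genes, 1990 lower, with 49 liver-enriched genes in part, and a minimum of 2 log2 units 2695, with 1242 higher and 1453 lower (3 liver-enriched genes lower than expansion medium). Of 52 counts over the gene lists, 17 moved by over 1.5 times when genes with differing Cy5 were left out, 9 under quantile normalization, 7 each against whole liver and hepatocytes, and 0 to 5 under each other alternative. The sign turned for Hnf4a by the software's ratio (0.30), quantile normalization (0.14), whole liver (0.34) and hepatocytes (0.85), for Ttr by the software's ratio (0.50) and for Trf by Cy3 (-2.35). The cause was not tested. No paired analysis was possible because the DM array carries no replicate number in the labels. Signal over background limits every absent gene.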

Other observations

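A few genes of cholesterol synthesis were picked after their values were seen, with no test of the group. Of those given here only Msmo1 was at liver level on both measures. That class held 55.7% of all genes above background on both adult liver arrays, so a gene in it is not unusual. Msmo1, a sterol demethylase, was at 6.14 by Cy3 on the DM array against 6.22 and 6.10 in liver. Idi1 differed by -1.03 by the ratio and -0.90 by Cy3, Hsd17b7 by -1.04 and -0.90, and Ebp by -1.41 and 0.65, although its liver arrays lay far apart by Cy3, at 7.70 and 4.34. Idi1 and Ebp were called lower by the ratio and not by Cy3, and Msmo1 and Hsd17b7 by neither.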
